A study of Caenorhabditis elegans with 2 samples.

Results

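Transsulfuration and methionine cycle genes were examined for peaks of a tagged transcription factor in whole larvae of Caenorhabditis elegans. The 10 genes, out of 19973 nuclear protein-coding genes of the Ensembl annotation, were taken by gene name: cbl-1, cth-1, cth-2, cbs-1, cbs-2, cysl-1, cysl-2, sams-1, metr-1 and ahcy-1. All 10 names matched 1 gene each. Chromatin immunoprecipitation followed by sequencing (ChIP-seq) had been performed on L2 larvae of both sexes of strain OP178, genotype unc-119(ed3) III; wgIs178, in which an integrated transgene supplies SKN-1 fused to GFP and FLAG at its C terminus. There was 1 group of 2 libraries, labelled as biological replicates 1 and 2, and no second condition or untagged strain, so no comparison between conditions was possible. The sample labels name SKN-1 as the target, whereas their free text names PHA-4, and the peaks are described here as those of the tagged protein. Worms of each replicate were whole animals, so the tissue that gave a peak is not known.

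The methionine cycle makes S-adenosylmethionine (SAM), the methyl donor of the cell, and recovers methionine from the homocysteine left after methyl transfer. Transsulfuration draws homocysteine out of that cycle: cystathionine beta-synthase joins it to serine, and cystathionine gamma-lyase splits the product to give cysteine, a building block of glutathione. SKN-1 is the worm relative of the mammalian Nrf factors, which activate genes of glutathione synthesis and detoxification.

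Peaks came in 4 lists on build ce11. An optimal list, thresholded by the irreproducible discovery rate between replicates, held 870 nuclear peaks. Relaxed lists, which keep background peaks by design, held 13300 nuclear peaks for the pooled libraries, 24771 for replicate 1 and 28606 for replicate 2. Each peak carries a signal, the authors' own enrichment value, which ranks peaks within its list. It has no common scale across the pooled and the replicate lists. All 872 optimal peaks, mitochondrial ones included, are also peaks of the pooled list, so those 2 lists are not independent. Ranks below count nuclear peaks, with 1 as the strongest. In the optimal list the signal had a median of 54.1 and a lowest value of 43.2. A promoter ran from 1000 bp upstream to 200 bp downstream of any annotated 5' end, and a gene body covered the annotated span. The 10 genes were chosen by pathway and with the deposited signal and rank of their peaks known, so all ranks are a description with no test.

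An optimal summit fell in the promoter of 2 of the 10 genes: cbl-1, which is named for cystathionine beta-lyase, and cysl-2, which encodes a cysteine synthase-like enzyme that detoxifies cyanide. The background was 3.89% of all protein-coding genes. Neither cystathionine gamma-lyase gene, neither cystathionine beta-synthase gene and none of the 3 methionine cycle genes had one. The only optimal summit in a gene body was the cbl-1 promoter summit already counted, against 1.01% of all genes with one. In the pooled list 5 of the 10 genes had a promoter summit (29.2% of all genes), in the replicate 1 list 7 (41.0%) and in the replicate 2 list 8 (43.5%). With pooled peaks of q at or under 0.05 alone, q being the deposited false discovery rate, 3 of the 10 (cbl-1, cysl-2 and ahcy-1) had one, against 7.70% of all genes. Because so many genes have a summit in the relaxed lists, the rank is given beside each.

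**Figure D1:**
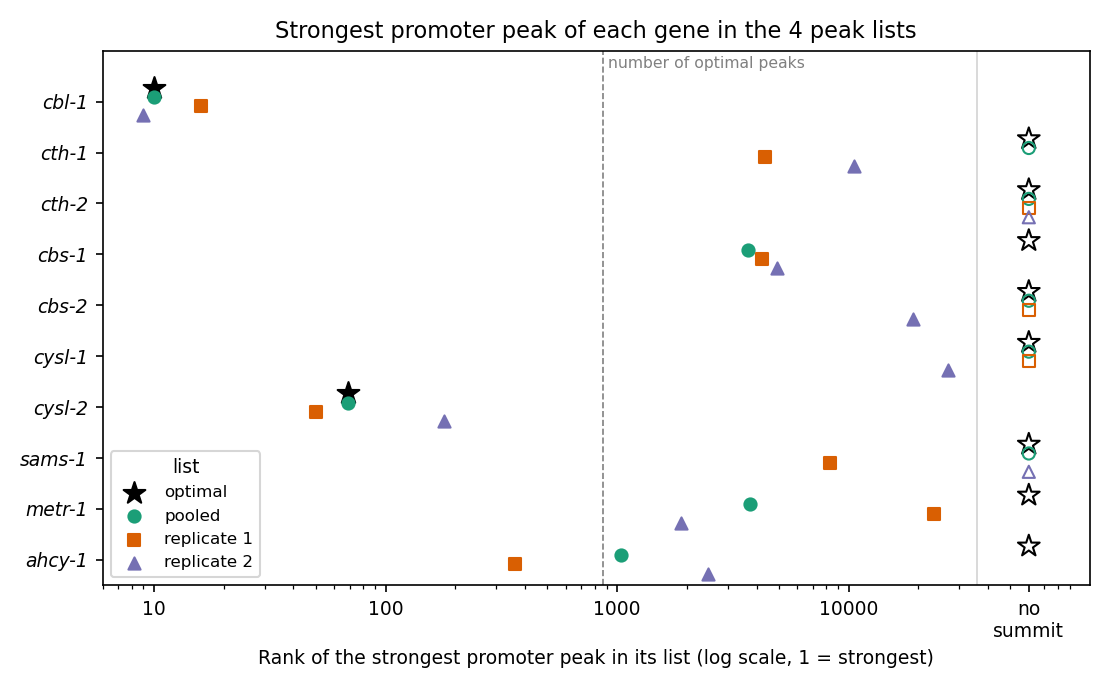
Rank of the strongest promoter peak of each gene (horizontal axis, logarithmic, 1 being the strongest) in the optimal list (stars), the pooled list (circles), replicate 1 (squares) and replicate 2 (triangles), with open symbols at the right where a list had no summit in the promoter and a dashed line at rank 870, the size of the optimal list. All filled symbols of cbl-1 and cysl-2 lie at rank 178 or stronger, and ahcy-1 in replicate 1, at rank 362, is the only other symbol left of the line.

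The cbl-1 peak was among the strongest of the whole series in each list. Its signal was 196 (rank 10) in the optimal and pooled lists, which share this peak, 128 (rank 16) in replicate 1 and 72.0 (rank 9) in replicate 2. Measured per gene, 11 of the 19973 protein-coding genes had a promoter peak at least as strong in the pooled list, cbl-1 included, 14 in replicate 1 and 11 in replicate 2. The 2 replicate summits lay 16 bp upstream and 19 bp downstream of the 5' end, 35 bp apart. The optimal signal was 3.62 times the list's median and 1.77 times that of cysl-2.

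The optimal peak spanned chromosome I 9327789 to 9327932, with its summit 13 bp inside the gene (cbl-1, WBGene00007533, chromosome I 9327857 to 9330928, plus strand). The annotated 5' end of cbl-1 is also its first coding base, with no 5' untranslated sequence in the annotation, so the summit is placed in the first coding exon. The peak was 144 bp wide in the optimal and pooled lists, against their full width of 340 bp. All of the 10 strongest nuclear optimal peaks were narrower than full width, and 15 of the 870 in all. In the replicate lists the cbl-1 peak had the full width, 324 bp in replicate 1 and 344 bp in replicate 2. It stood between peaks of similar strength. Those ranked 7 and 8 (signals 262 and 255) lay in the promoters of aps-1 with rpt-2 and of ribo-1 with rpn-1, where rpt-2 and rpn-1 encode proteasome subunits. Those ranked 9 and 11 (240 and 194) were in no protein-coding promoter. Those ranked 12 and 13 (193 and 186) lay in the promoters of C02D5.4 and of msra-1, a methionine sulfoxide reductase gene that repairs oxidised methionine.

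Other annotated features crowd the 5' end of cbl-1. Within 1000 bp of the optimal summit there are 4 tRNA genes, short genes transcribed by RNA polymerase III. On the lower-coordinate side they lay 375 bp and 162 bp away (9327424 to 9327495 on the minus strand and 9327637 to 9327708 on the plus strand). On the other side they lay 546 bp and 760 bp away, inside the cbl-1 span (9328416 to 9328487, minus strand, and 9328630 to 9328701, plus strand). No other optimal summit had 4 tRNA genes that close. Of all 870 optimal summits, 2.53% had at least 1, and of all 612 nuclear tRNA genes 4.58% had an optimal summit within 1000 bp. The other 9 genes had no tRNA gene in or within 1000 bp of them. Whether the tRNA genes have a part in the cbl-1 peak was not tested. No other protein-coding promoter held the summit. The remaining cbl-1 summits had far lower signals. In the pooled list one in an intron 660 bp from the 5' end had a signal of 26.3 (rank 3138, q 0.195). Another, 891 bp upstream and inside the neighbouring gene uggt-2, had 17.5 (rank 8804, q 0.767). The corresponding summits of replicate 1 were 589 bp inside the gene, with a signal of 21.5 (rank 2393, q 0.0445), and 819 bp upstream, with 15.6 (rank 5422, q 0.288). Replicate 2 had intronic summits at 663 and 1643 bp, with signals of 4.02 and 3.75 (ranks 22960 and 25568, q 0.859 and 0.906).

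Its paralogs cth-1 and cth-2 encode cystathionine gamma-lyases, which release cysteine from cystathionine. Their promoters held no summit in the optimal or the pooled list. At cth-1 (WBGene00009048, chromosome V 16100680 to 16102750, plus strand) the strongest promoter summit had a signal of 17.0 in replicate 1 (rank 4336, 300 bp upstream) and 6.02 in replicate 2 (rank 10577, 607 bp upstream). Both also lie in the promoter of str-7, a chemoreceptor gene on the other strand. The 2 summits were 307 bp apart, and the nearest optimal summit was 131 kb away. At cth-2 (WBGene00022856, chromosome II 7056184 to 7057960, minus strand) neither replicate had a promoter summit, and its only summit in the gene was an intronic one in replicate 2 with a signal of 4.25 (rank 20961).

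Farther upstream the paralogs differed. The stretch between cth-2 and the divergent gene acs-6, which encodes an acyl-CoA synthetase, held 3 optimal summits at 1583, 2347 and 3012 bp from the cth-2 5' end. Their signals in the optimal list were 94.2 (rank 97), 110 (rank 70) and 90.2 (rank 110), near that of cysl-2. In replicate 1 the same places had 68.9, 69.6 and 66.3 (ranks 94, 93 and 105), and in replicate 2 they had 24.4, 40.4 and 24.8 (ranks 196, 53 and 190). All 3 thus stood in both replicate lists, within 20 bp of the optimal summit. Measured from acs-6 they lie 2487, 1723 and 1058 bp upstream, so that the first is nearer to cth-2 and the others are nearer to acs-6, and none is in a protein-coding promoter as defined. The peaks alone do not assign the stretch to either gene. Optimal summits 1000 to 5000 bp upstream were found at 3 of the 10 genes (cth-2, cbs-1 and cysl-2), against 4.31% of all protein-coding genes.

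The sequences at these 3 summits are shown because they carry the strongest peaks near a cystathionine gamma-lyase gene (RefSeq genome, WBcel235, the assembly of ce11; minus strand, reading toward cth-2). Capitals mark the SKN-1 word (A or T in the first pair of positions, then T, then A or G, then TCAT) and the GATA word TGATAA on either strand, and a SKN-1 word that ends in TTATCAT holds the GATA word on the other strand.
cth-2 at 1583 bp, chrII:7059443-7059643: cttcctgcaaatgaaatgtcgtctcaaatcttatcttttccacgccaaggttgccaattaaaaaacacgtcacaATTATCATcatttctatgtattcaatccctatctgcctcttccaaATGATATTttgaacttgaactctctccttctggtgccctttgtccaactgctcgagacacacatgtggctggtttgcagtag
cth-2 at 2347 bp, chrII:7060207-7060407: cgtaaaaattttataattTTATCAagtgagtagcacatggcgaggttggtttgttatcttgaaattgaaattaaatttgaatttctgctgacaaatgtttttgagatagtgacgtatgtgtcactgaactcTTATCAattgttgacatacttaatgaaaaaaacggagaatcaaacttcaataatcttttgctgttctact
cth-2 at 3012 bp, chrII:7060872-7061072: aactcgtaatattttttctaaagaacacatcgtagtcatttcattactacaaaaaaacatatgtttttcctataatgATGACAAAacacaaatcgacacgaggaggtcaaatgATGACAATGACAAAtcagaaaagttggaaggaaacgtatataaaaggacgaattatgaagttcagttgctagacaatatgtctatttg
Within 100 bp of the summit the first held the SKN-1 word 2 times and the last 3 times, with 2 of these overlapping, whereas the middle peak, the strongest of them, held none and had the GATA word 2 times. Of all 870 optimal summits, 27.6% had the SKN-1 word in such a window of 201 bp and 4.94% had it 2 or more times. The GATA word occurred 2 or more times in 17.6% of these windows.

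**Figure D2:**
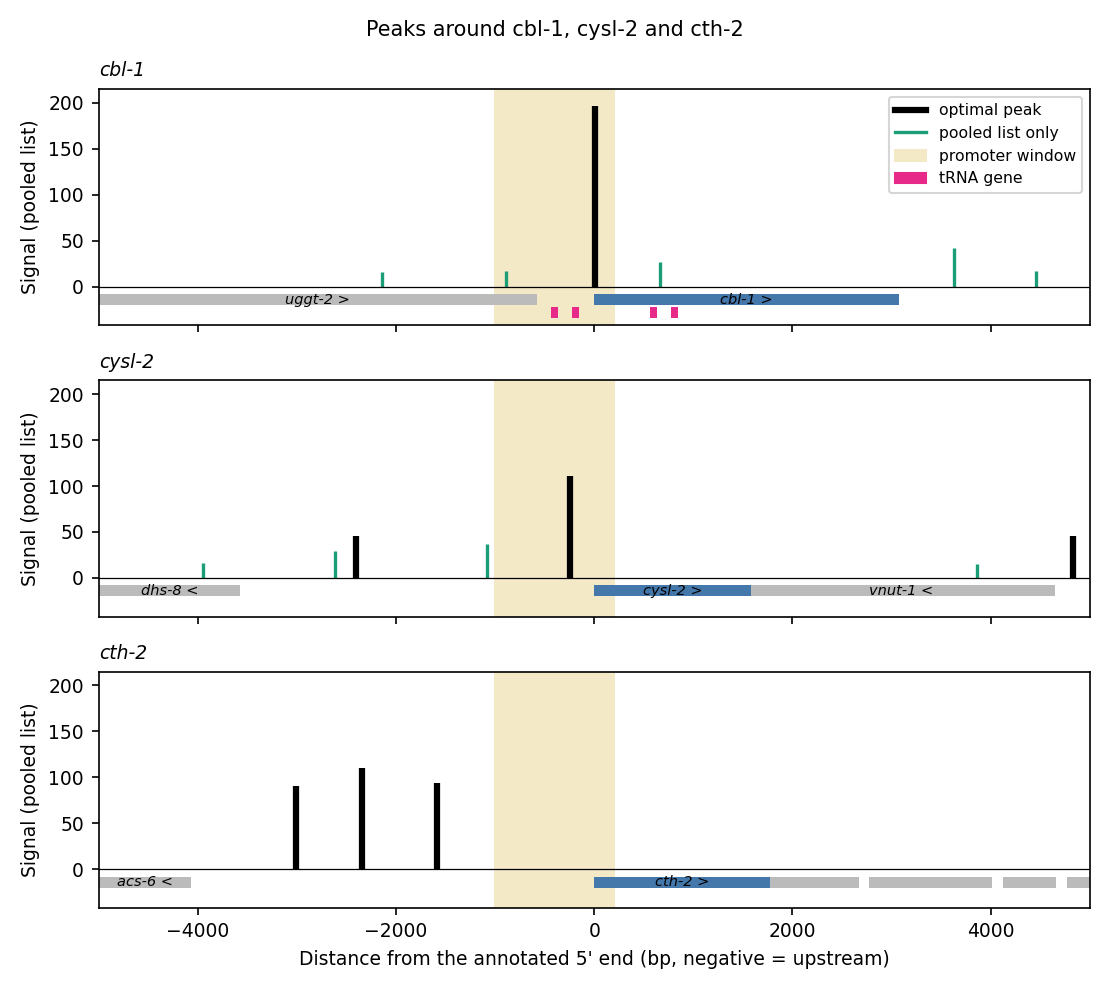
Signal of each pooled-list peak (vertical axis) against its distance from the annotated 5' end (horizontal axis, bp, negative upstream) at cbl-1, cysl-2 and cth-2, with optimal peaks in black, other pooled peaks in green, the promoter window shaded, genes as bars with arrowheads for the direction of transcription and tRNA genes in pink. The cbl-1 peak of 196 stands at the 5' end with tRNA genes on both sides, that of cysl-2 at 111 stands inside the shaded window, and the 3 cth-2 peaks of 90.2 to 110 all stand outside it.

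The cysteine synthase-like genes differed among themselves. The cysl-2 peak (cysl-2, WBGene00010759, chromosome II 14492874 to 14494451, minus strand) had a signal of 111 (rank 69) in the optimal and pooled lists, 87.9 (rank 50) in replicate 1 and 25.3 (rank 178) in replicate 2. Its summits lay 245, 234 and 224 bp upstream of the 5' end in the pooled list, replicate 1 and replicate 2, and those of the replicates were 10 bp apart. No other protein-coding promoter or gene held it. A second optimal summit 2403 bp upstream had a signal of 45.5 (rank 753) and was nearer to dhs-8, a short-chain dehydrogenase gene 1172 bp away. There replicate 1 had a summit with a signal of 36.0 (rank 563), while the nearest summit of replicate 2 was 144 bp away (signal 13.0, rank 1356). By contrast cysl-1 (WBGene00007653, chromosome X 9952579 to 9954533, minus strand), whose product binds the oxygen sensor EGL-9 when hydrogen sulfide accumulates, had 1 weak promoter summit in replicate 2 (signal 3.61, rank 26897), no summit in the other lists, and the nearest optimal summit 91.4 kb away.

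The cysl-2 peak is shown over 300 bases around its optimal summit, on the strand of the gene and with the same capitals, because it is the promoter peak of these genes with a SKN-1 word at the summit.
cysl-2, chrII:14494547-14494846: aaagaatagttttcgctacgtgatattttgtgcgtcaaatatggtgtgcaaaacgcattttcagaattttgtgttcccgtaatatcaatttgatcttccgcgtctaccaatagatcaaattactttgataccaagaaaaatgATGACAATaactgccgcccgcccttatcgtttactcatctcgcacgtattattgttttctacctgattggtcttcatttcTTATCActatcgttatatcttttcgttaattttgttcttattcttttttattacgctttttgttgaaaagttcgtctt
Its SKN-1 word began 1 bp from the optimal summit, and lay 12 bp from the replicate 1 summit and 22 bp from the replicate 2 summit. It appears above on the strand opposite to the definition, as ATGACAAT. The GATA word lay 72 bp from the optimal summit.

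Cystathionine beta-synthase commits homocysteine to transsulfuration, and its genes had weak peaks. At cbs-1 (WBGene00013866, chromosome X 10054275 to 10057528, plus strand) the strongest promoter summit had a signal of 24.6 in the pooled list (rank 3667, 69 bp upstream), 17.2 in replicate 1 (rank 4215, 516 bp upstream) and 8.23 in replicate 2 (rank 4905, 64 bp upstream). Replicate 1 had a second summit 63 bp upstream, with a signal of 10.2 (rank 15450), so the replicates shared a place close to the 5' end at low rank. The q was 0.274 in the pooled list. An optimal summit 2309 bp upstream (signal 43.9, rank 837) lay inside the neighbouring gene gnrr-3, a receptor gene, and replicate 2 had no summit within 100 bp of it. At cbs-2 (WBGene00018783, chromosome II 2220396 to 2223567, minus strand) the only summit in any list was in replicate 2, with a signal of 4.50 (rank 19014), and the nearest optimal summit was 155 kb away.

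In the methionine cycle ahcy-1, which encodes S-adenosylhomocysteine hydrolase, came closest to the optimal list. Its promoter summit had a signal of 40.5 in the pooled list (rank 1037, 810 bp upstream), just outside the optimal list, whose weakest peak had 43.2, whereas cysl-2 with 111 was the weaker of the genes inside it. In replicate 1 the summit was 806 bp upstream with a signal of 41.5 (rank 362), strong enough to be among the 870 strongest peaks of that list. In replicate 2 the strongest promoter summit was elsewhere, 276 bp upstream, with a signal of 10.6 (rank 2458). The peaks in the 2 libraries were therefore 530 bp apart (ahcy-1, WBGene00019322, chromosome I 6836469 to 6838140, plus strand). A pooled summit in the 3' untranslated exon of ahcy-1 (signal 28.9, rank 2511) was also in the promoter of the next gene, dpf-3, which encodes a peptidase.

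The other genes of the cycle had weaker promoter peaks than ahcy-1 in the pooled list and replicate 1, whereas in replicate 2 that of metr-1 was the stronger. At metr-1, which encodes the vitamin B12-dependent methionine synthase (WBGene00010988, chromosome II 10926561 to 10931078, plus strand), the promoter summit had a signal of 24.4 in the pooled list (rank 3733, 674 bp upstream) and 11.6 in replicate 2 (rank 1895, 691 bp upstream). The strongest promoter summit of replicate 1 was 8.36 (rank 23472) at another place, 568 bp away. The pooled metr-1 peak thus corresponds to a summit of replicate 2 and to none of replicate 1. At sams-1, which encodes a SAM synthetase (WBGene00008205, chromosome X 11965962 to 11969893, plus strand), the promoter held a summit in replicate 1 alone, with a signal of 13.2 (rank 8339). Its strongest summits were instead intronic, toward the 3' end of the gene. They lay 3562 bp from the 5' end with a signal of 28.9 (rank 2508) in the pooled list, 3558 bp with 20.1 (rank 2866) in replicate 1 and 3562 bp with 7.80 (rank 5606) in replicate 2. The q of these was 0.101, 0.0738 and 0.183.

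Both libraries had a promoter summit at 6 of the 10 genes, and at 2 of them, cbl-1 and cysl-2, the strongest summits of the libraries lay within 100 bp of each other. Among all protein-coding genes 13.2% met that condition, or 48.5% of the 5442 genes with a promoter summit in both lists. At the other 4, cth-1, cbs-1, metr-1 and ahcy-1, the strongest summits were 307 to 568 bp apart. For 860 optimal summits with a summit of each replicate within 500 bp, the nearest ones were a median of 29.0 bp apart. That is another measure than the gaps above, which are between the strongest promoter summits. The optimal list as a whole was also already thresholded by the irreproducible discovery rate between replicates. That does not place a close summit of each replicate at every optimal peak. At the optimal peak 2309 bp upstream of cbs-1, the nearest replicate 2 summit was 203 bp away (rank 5514). At cbs-1 a weaker summit of replicate 1, 63 bp upstream, lay close to the strongest one of replicate 2, 64 bp upstream.

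**Figure D3:**
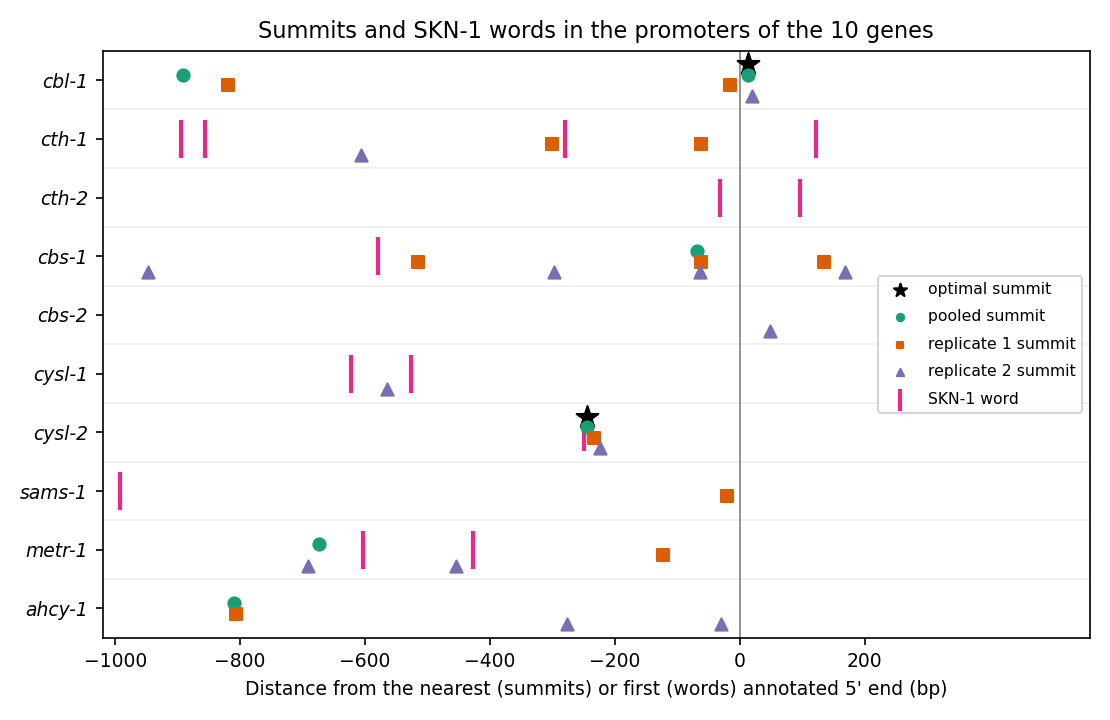
Positions of promoter summits in the optimal list (stars), pooled list (circles), replicate 1 (squares) and replicate 2 (triangles), with SKN-1 words as pink bars, against the distance from the annotated 5' end (horizontal axis, bp) in each of the 10 genes. At cysl-2 the word and the summits of all lists fall together 224 to 250 bp upstream, whereas cbl-1 has summits of all lists within 19 bp of the 5' end, others 819 and 891 bp upstream and no word, and cth-2 has words and no summit.

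Promoters with a SKN-1 word were found among the genes with and without an optimal peak. The word was present in 7 of the 10 promoters, against 48.9% of all protein-coding promoters of the same 1201 bp. It was absent from those of cbl-1, cbs-2 and ahcy-1. The cth-1 promoter held it 4 times, those of cth-2, cysl-1 and metr-1 2 times each, and those of cbs-1, cysl-2 and sams-1 once. The gene with the strongest peak thus had none, and the gene with the most words had no pooled peak. At cbl-1 the summit window held the shorter word, A or G followed by TCAT, 3 times, the nearest 9 bp from the summit, and the GATA word 4 times, 1 of them over the summit. The shorter word was present in 69.9% of optimal windows and is common everywhere, being in 98.9% of all promoters. The GATA word occurred 4 or more times in 1.49% of optimal windows and at least once in 39.2%. The full SKN-1 word was present at 12 of the 20 strongest optimal summits, in 27.6% of all optimal windows and 13.6% of pooled windows, and in 11.2% of windows of 201 bp ending at the 5' end of all genes.

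Sites are shown only where the strongest promoter summit of a list had the SKN-1 word within 100 bp, with 1 list for each gene. Each is on the strand that holds the word, with the word in capitals. At cysl-2 the window held the word in all 4 lists. The strongest promoter summits of cbs-1 in the pooled list and replicate 2, of cth-1 in replicate 2 and of metr-1 in replicate 1 had none. Those of cbl-1, cbs-2, sams-1 and ahcy-1 had none in any list.
cysl-2, rank 69 in the optimal list, chrII:14494686-14494715, plus strand: gggcggcagttATTGTCATcatttttcttg
metr-1, rank 3733 in the pooled list, chrII:10925942-10925971, minus strand: aaaggacacatTTTATCATaaagatgggtc
cth-1, rank 4336 in the replicate 1 list, chrV:16100385-16100414, minus strand: gagcgagttcaAATATCATcggttgaagga
cbs-1, rank 4215 in the replicate 1 list, chrX:10053680-10053709, plus strand: tatttttctgaAATGTCATgttatttttcc
cysl-1, rank 26897 in the replicate 2 list, chrX:9955044-9955073, minus strand: cataatgcaatTATGTCATactgagcggtt
cysl-1, rank 26897 in the replicate 2 list, chrX:9955141-9955170, minus strand: gtggtttacctTTTATCATcaaaaatgtcc
The middle of the word was 5 bp from the optimal summit at cysl-2, 70 bp from the pooled summit at metr-1, 20 and 64 bp from the replicate 1 summits at cth-1 and cbs-1, and 39 and 58 bp from the replicate 2 summit at cysl-1. The word of metr-1 and the second of cysl-1 are the same 8 letters, and they hold the GATA word on the other strand. In the lists named, the q of these peaks was 0.00147 at cysl-2, 0.285 at metr-1, 0.204 at cth-1, 0.191 at cbs-1 and 0.926 at cysl-1. A match of letters in these windows does not show that the site is bound.

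Genes around the 10 in metabolism were read from a list of 55 names, of which 51 matched a gene (sams-2, mpst-5, sqrd-2 and moc-4 did not). Of the 51, 2 had an optimal promoter summit, 3.92% against 3.89% of all genes, which is the background share. In the pooled list 58.8% of them had a promoter summit, against 29.2% of all genes. The names were listed with earlier results of these data known, so these shares are a description only. Apart from the 2 genes with an optimal summit, the strongest of these pooled summits had rank 1403. Where a count at the background share falls among the groups is not read as a result. The genes with an optimal summit were both in the group of 12 for vitamin B12 use. These were mce-1, which encodes methylmalonyl-CoA epimerase (signal 59.7, rank 336, 136 bp upstream, in the promoter of ndub-7 too), and mrp-5, an ABC transporter gene (47.9, rank 647, 283 bp upstream). At mce-1 replicate 1 had 46.2 (rank 258) and replicate 2 had 11.7 (rank 1832), and at mrp-5 replicate 1 had 37.1 (rank 513) and replicate 2 had 11.6 (rank 1899).

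No gene of the other groups had an optimal promoter summit: 0 of 5 further methionine cycle and SAM synthetase genes, 0 of 5 for SAM use, 0 of 2 cysteine synthase-like genes, 0 of 10 for cysteine and sulfide breakdown, 0 of 5 for the molybdenum cofactor, 0 of 8 for folate one-carbon metabolism and 0 of 4 for the CYSL-1 and HIF-1 pathway. With 3.89% of all genes having such a summit, a count of 0 in groups this small does not set them apart from the background. None of the 51 had an optimal summit in its body. The paralogs cysl-3 and cysl-4, and cdo-1, which encodes cysteine dioxygenase, had no promoter summit in any of the 4 lists. In the pathway through which CYSL-1 acts, 3 of the 4 genes had an optimal summit farther upstream than the window but within 2000 bp, and vhl-1 had none there. In the whole window from 2000 bp upstream to 200 bp downstream, the same 3 of the 4 had an optimal summit, against 5.12% of all genes. That share includes the 3.89% with one in the narrower window. The share of all genes with a summit in the added stretch alone was not computed. The summits were 1082 bp upstream of rhy-1 (signal 68.5, rank 230), 1759 bp upstream of egl-9 (72.7, rank 202) and 1809 bp upstream of hif-1 (46.2, rank 716), which encode a membrane regulator of HIF-1, its prolyl hydroxylase and the hypoxia factor itself. These were named after their values were seen. Replicate 1 had signals of 42.6, 44.6 and 39.4 there (ranks 328, 287 and 431). Replicate 2 had 24.3 at rhy-1 and 28.1 at egl-9 (ranks 198 and 133) and no summit within 100 bp at hif-1. The methionine synthase reductase gene mtrr-1 likewise had one 1072 bp upstream (signal 54.9, rank 421).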

How the data were processed

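ChIP-seq peak lists of 2 libraries of L2 larvae were used as deposited. The readme texts deposited with the libraries trace a relaxed list to aligned reads (of 1 library, or of both for the pooled list) plus 1 file common to the replicates, and trace the optimal list to the 3 relaxed ones. For the aligner, peak caller and cutoffs: not given in the sources used here. The signal is the deposited enrichment per peak, and the deposited −log10 q was turned into q. Read depth is not given in the lists, so precision per peak is unknown; the control experiment and the ce10 lists were not used here.

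Summits were placed on Ensembl release 115 genes of WBcel235, the assembly of ce11, with 1-based coordinates and mitochondrial peaks left out (24 in replicate 2, 0 in replicate 1, and 2 each in the pooled and optimal lists). A summit counted for every promoter holding it. Words were searched on both strands within 100 bp of summits in the RefSeq genome. Assignment and word search were tested on simulated data. Python 3.11, numpy 2.4.6 and matplotlib 3.10.9 were used. Genes and lists were chosen with earlier results of these data known, and no test was made. All 10 genes are named, with related genes having an optimal promoter summit, genes sharing a summit with the 10, and genes at the 3 peaks ranked on each side of cbl-1. Alternatives were other promoter windows, 5' ends, overlap rules, peak sets, word windows and each replicate's own list.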

Additional observations from a re-analysis of the deposited data

How the results depend on the processing

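The count of 2 genes with an optimal promoter summit stayed at cbl-1 and cysl-2 with a window of 500 bp upstream to 100 bp downstream, the most upstream 5' end only, peak overlap, nearest 5' end, the stronger 50% of peaks and replicate 2's own 872 strongest peaks. It became 3 with cth-2 in a window of 2000 bp upstream, and 3 with ahcy-1 in replicate 1's own 872 strongest. The share of all genes was 3.16% with the narrower window, 5.12% with the wider one, 4.22% by overlap, 2.88% by nearest 5' end, 2.06% with the stronger 50% and 3.62% to 3.80% without 1 replicate. Related genes numbered 6 in the wider window (with egl-9, hif-1, mtrr-1 and rhy-1), 4 by overlap, 1 with the stronger 50%, and 2 to 2 without 1 replicate; without replicate 1 these were egl-9 and rhy-1 in place of mce-1 and mrp-5. The cbl-1 rank was 9 to 16 without 1 replicate, and its optimal summit in the gene body became 0 to 1, the replicate 1 summit lying 16 bp upstream. Of the 2 optimal promoter summits, 1 had the SKN-1 word within 100 bp, and 2 had the shorter word. Genes with a pooled promoter summit were 3 at q of 0.05 or less (7.70% of all genes) and 7 to 8 without 1 replicate. No paired analysis was possible because there is 1 group. The causes were not tested, and peak lists without depth limit all weak ranks.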

Other observations

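Of the 870 nuclear optimal peaks, 15 were narrower than the full width of 340 bp, and 10 of these were the 10 strongest, that of cbl-1 among them. That of cysl-2 and all 3 at cth-2 had the full width. In the replicate lists the cbl-1 peak had the full width too, 324 bp in replicate 1 and 344 bp in replicate 2.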
